A study of Mus musculus with 6 samples.

Results

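The genes described here are the mouse histone genes of the 5 families H1, H2A, H2B, H3 and H4, measured in juvenile testes with and without targeting of Dmrt1, a transcription factor gene of Sertoli cells and germ cells. They were picked by name: rows whose RefSeq accession maps to a symbol starting H1f, H2ac, H2bc, H3c or H4c and ending in digits, or to a gene whose older name starts Hist1h to Hist4h. Of 74 such genes in the annotation, 66 were measured, 63 by their current symbol and 3 (H2aw, H2bu2 and H4f16) by an older name only, out of 17277 named genes and 25631 rows on the array. The rule takes the brightest row of a gene, but every one of the 66 had a single row, so no measured value decided the membership. They comprised 10 H1, 16 H2A, 16 H2B, 12 H3 and 12 H4 genes. The other 8, H2ac14, H2ac21, H2ac23, H2bc23, H4bc24, H4c17, H2af-ps2 and H2bu1-ps, were not analysed here.

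Testes of male mice at postnatal day 9 were compared on 3 Dmrt1 KO arrays (Cre-positive) and 3 control arrays (Cre-negative), with 1 sample on each. Both groups carry the genotype label NGN-cre. The labels name neither the promoter that drives this Cre nor the targeted alleles, and Cre itself cannot be told apart from the targeting. Nothing says that samples came from separate animals, so p-values measure the spread between these samples, which may be technical.

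Histones are the proteins that package DNA. A pair each of H2A, H2B, H3 and H4 forms the core of the nucleosome, and H1 binds the linker DNA between cores. Most core histone genes lie in clusters and are transcribed in S phase, and their messenger RNAs end in a stem-loop rather than a poly(A) tail. Male germ cells add variants of their own: H2ac1 and H2bc1 encode the testis forms of H2A and H2B, and H1f6 and H1f7 encode testis forms of H1, before protamines replace most histones in spermatids. How the labelling of these arrays was primed, on poly(A) tails or otherwise, is not given by the labels. Many histone genes of one family have similar coding sequences, so their rows can share signal, and the value of such a gene is uncertain to that extent. Which rows share signal was not tested.

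The arrays had median intensities between 498.1 and 543.8. Pearson's r of log2 intensity was at most 0.973 between Dmrt1 KO replicate 3 and any other array and at least 0.978 for all other pairs, so that array stood apart and results are also given without it. Dmrt1 had a log2 intensity of 11.98, 12.08 and 12.27 in Dmrt1 KO replicates 1, 2 and 3, against 13.59, 13.49 and 13.21 in the controls, a difference of -1.32 ± 0.20 (SE; limma adjusted p = 0.124). The labels do not say which exons were targeted or where its probes lie, so this level is no check of the deletion. Each array title holds an array number of its own. By the leading digits of these, the arrays were put here into 3 sets, called title numbers below. The labels do not say what the digits mean. Dmrt1 KO replicate 1 shares the first title number with control replicate 1. Dmrt1 KO replicate 2 shares the second with control replicates 2 and 3, and Dmrt1 KO replicate 3 is alone in its set. Germ cell markers (8 genes) summed to intensities of 107737 to 141412 in Dmrt1 KO arrays and 126383 to 143725 in controls. By log2 fold change 5 of them were below 0 and 3 above (median -0.06), with Dppa3 highest at 2.54 (limma adjusted p = 0.083). Of the 8 markers of pachytene spermatocytes and spermatids, Ldhc, Pgk2 and Acrv1 lay on every array under a log2 intensity of 7.19, the guide to background used here, while Hspa2 and Piwil1 lay above it on all. Their sums were 7571 to 8560 in Dmrt1 KO arrays and 7644 to 9303 in controls. Of 9 spermatogonia markers 4 were below 0 and 5 above, with a median of 0.10. The lowest of them, Stra8, a spermatogonial gene of meiotic entry, gave -1.63 (limma adjusted p = 0.147). The epididymis and rete markers were above 0 in 7 of 7 genes, with sums of 10346.5 to 17599.6 in Dmrt1 KO arrays against 3059 to 5590 in controls. In 4 of the 7 every Dmrt1 KO array was higher than every control, against 6.80% of all rows. The groups overlapped in Krt8, Krt19 and Crisp1, and Crisp1 gave 1.61 ± 1.83 (SE). The macrophage and leukocyte markers were below 0 in 5 of 5 genes (median -0.45, sums of 2790 to 4166 in Dmrt1 KO arrays against 4058 to 5870 in controls), and the Leydig cell markers above 0 in 5 of 5 (median 0.33, sums of 72537 to 83336 in Dmrt1 KO arrays against 45539 to 71806 in controls). The groups separated in these directions in 2 of 5 genes of each of these 2 lists, against 8.54% of all rows lower and 6.80% higher. On Dmrt1 KO replicate 3, 4 of the 5 macrophage and leukocyte genes were lowest. Without that array their median was -0.28, and that of the Leydig cell markers 0.25. The part of these other cells in the histone results was not tested. In RNA of whole testes, fewer cells of a type and less RNA per cell cannot be told apart.

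Across the histone genes, no member passed the test, and those that separated the groups were mostly lower in Dmrt1 KO testes. With limma's adjusted p at 0.05 over all rows, 0 of 66 members were called, where 0.0312% of all rows were. The lowest adjusted p of a member was 0.146, for H1f10. At an unadjusted p of 0.05 limma gave 16 members lower and 0 higher, against 5.10% of all rows lower and 4.41% higher. In 18 members (27.3%) all 3 Dmrt1 KO arrays lay below all 3 controls, where this held for 8.54% of all rows, and in 3 members (4.55%) all lay above, against 6.80% of rows. The log2 fold change, Dmrt1 KO over control, was below 0 in 46 of 66 members, against 52.0% of all rows, and above 0 in 20, against 48.0%, and its median was -0.22, against -0.02 over all rows. Members of a family can share sequence and signal, which was not tested here, so these counts are not to be read as counts of independent genes.

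Without Dmrt1 KO replicate 3, 54 members were below 0 with a median of -0.28, where 13289 of 25631 rows were below 0. In that setting 26 members lay below the controls on both remaining arrays, where 13.6% of rows did. The median difference was -0.20 between the arrays that share the first title number and -0.29 between those that share the second.

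**Figure D1:**
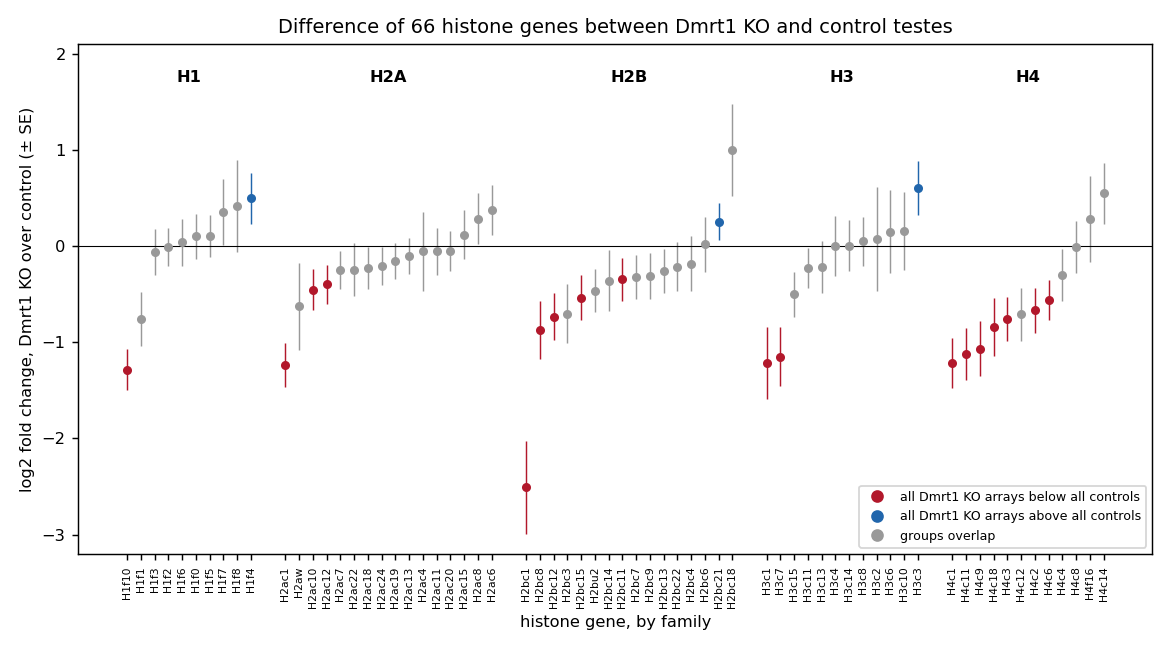
Log2 fold change (vertical axis, Dmrt1 KO over control, with limma's standard error) of each of the 66 histone genes, sorted within families. Red marks the 18 genes in which every Dmrt1 KO array was lower than every control, blue the 3 in which all were higher and grey the rest. H2bc1 is lowest at -2.51, and 10 of 12 H4 genes lie below 0.

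Many members were dim. The guide to background, a log2 intensity of 7.19, was the 95th percentile of the mean levels of 1063 olfactory receptor rows. Both group means lay under it in 13 members, 1 mean in 10 and neither in 43. Of the 47 members with a mean over all arrays above the guide, 35 were below 0, where 54.9% of rows of that brightness were. In 12 of the 47 all Dmrt1 KO arrays lay below the controls, where this held for 9.63% of those rows. Mean log2 intensity over the 6 arrays ran from 5.19 (H1f4) to 14.66 (H1f0) in the H1 family and from 4.99 (H2ac6) to 14.20 (H2ac7) in H2A. The range was 5.09 (H2bc6) to 10.70 (H2bc4) for H2B, 5.16 (H3c7) to 10.26 (H3c4) for H3 and 5.40 (H4c14) to 8.65 (H4c3) for H4. Each row has its own probes, so these levels do not rank the transcripts.

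The widest difference belonged to H2bc1, which forms a testis pair with H2ac1, its neighbour read in the opposite direction. H2bc1 had a log2 intensity of 4.76, 5.52 and 5.72 in Dmrt1 KO replicates 1, 2 and 3, against 7.82, 8.83 and 6.87 in control replicates 1, 2 and 3. The groups did not overlap. The Dmrt1 KO arrays were all under the background guide, as was control replicate 3. The controls spread over a wider range than the gap between the nearest arrays of the groups. The gene was 5.68-fold lower (-2.51 ± 0.48 on the log2 scale, SE, 3 arrays in each group, limma adjusted p = 0.190), and 3.13-fold lower with log2(value + 50). With the trend and robust settings of eBayes its adjusted p in limma was 0.0382, where 0.109% of rows were called lower. The difference was -3.06 within the first title number and -2.33 within the second.

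H2ac1 had 6.33, 6.08 and 6.49 in Dmrt1 KO replicates 1, 2 and 3, against 7.24, 7.84 and 7.54 in the controls. All Dmrt1 KO arrays were again below all controls and under the guide, while the controls lay just above it. It was 2.36-fold lower (-1.24 ± 0.23, SE, limma adjusted p = 0.185), and 1.83-fold lower with log2(value + 50). Both genes kept this direction without Dmrt1 KO replicate 3, at -2.70 for H2bc1 and -1.33 for H2ac1.

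The annotated starts of H2ac1 and H2bc1 lie 280 bases apart, and their promoter windows in RefSeq (GRCm38.p6, 250 bases before to 50 after each start) overlap by 220 bases. The 250 bases before the start of H2ac1 are shown because both genes of the pair differed together. They lie at chr13:23934187-23934436, on the plus strand, the strand of H2ac1. Capitals mark matches on either strand to the CCAAT box, to the TATA box letters TATAAA and to the octamer letters ATGCAAA, a motif known from H2B promoters.
H2ac1 and H2bc1: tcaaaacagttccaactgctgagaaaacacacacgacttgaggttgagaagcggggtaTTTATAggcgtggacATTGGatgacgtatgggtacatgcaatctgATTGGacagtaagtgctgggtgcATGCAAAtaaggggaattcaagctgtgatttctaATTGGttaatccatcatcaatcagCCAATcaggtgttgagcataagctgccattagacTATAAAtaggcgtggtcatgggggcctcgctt
This stretch held 4 CCAAT matches, 1 octamer match between them and a TATAAA match near either end, facing each gene. ACANTGT, the inner letters of the DMRT1 binding motif, matched neither window of the pair, and matched 5 of 61 histone windows (8.20%) against 7.59% of all 27025 promoter windows.

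**Figure D2:**
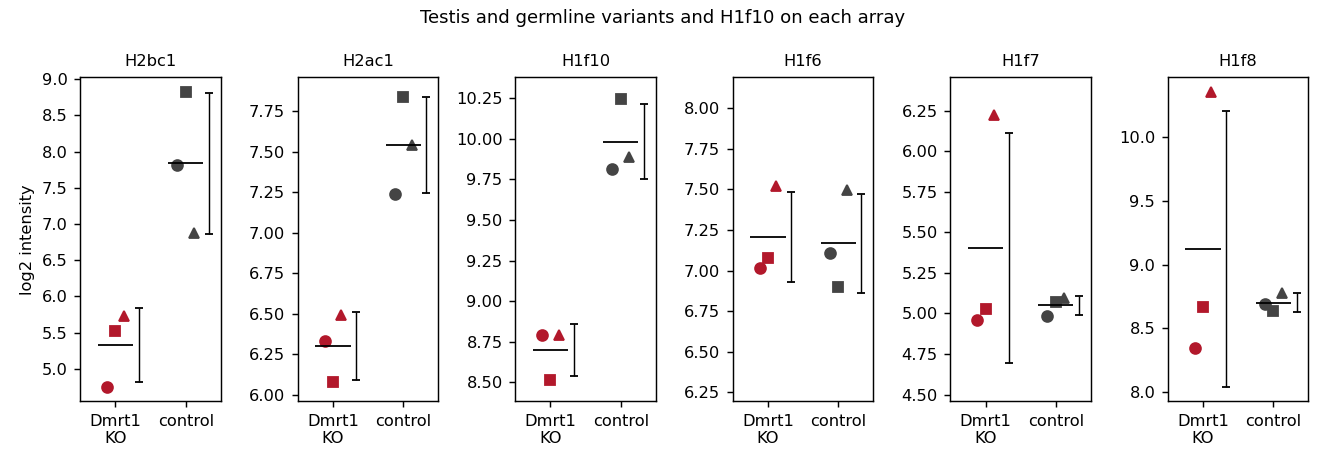
Log2 intensity (vertical axis, its range set for each gene) of 5 testis or germline variants and H1f10 on each array, Dmrt1 KO in red and control in grey. Circle, square and triangle are replicates 1, 2 and 3, the line is the mean and the bar the SD. The groups separate in H2bc1, H2ac1 and H1f10, and Dmrt1 KO replicate 3 is alone high in H1f7 and H1f8.

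The other H2A genes differed less. H2A rows gave a median log2 fold change of -0.18, with 13 of 16 below 0. H2ac10, a canonical H2A gene, had 13.38, 13.89 and 13.64 in Dmrt1 KO replicates 1, 2 and 3, against 13.94, 14.09 and 14.25 in controls. It was 1.37-fold lower (-0.45 ± 0.21, SE, limma adjusted p = 0.555). H2ac12, also canonical, was 1.32-fold lower (-0.40 ± 0.21, adjusted p = 0.596), again with no overlap of the groups, and 3 of 16 H2A genes (18.8%), H2ac1 included, separated in this direction, against 8.54% of all rows. H2ac7, the brightest row, gave -0.25 ± 0.19, and H2ac6, the dimmest, under the guide in both groups, gave 0.37 ± 0.26. The H2A median was -0.22 without Dmrt1 KO replicate 3.

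In the H2B family 13 of 16 genes were below 0, with a median of -0.33, and of -0.32 over the 15 genes besides H2bc1. H2bc8 had 7.16, 6.49 and 6.03 in Dmrt1 KO replicates 1, 2 and 3, against 7.49, 7.23 and 7.59 in controls. Replicate 1 lay close under the controls, and replicates 2 and 3 lay further down. The gene was 1.83-fold lower (-0.87 ± 0.30, SE, limma adjusted p = 0.418), and 1.53-fold lower with log2(value + 50), with the Dmrt1 KO mean under the guide. H2bc12 had 9.20, 8.81 and 8.51 in Dmrt1 KO arrays, against 9.38, 9.80 and 9.54 in controls, and was 1.66-fold lower (-0.73 ± 0.24, adjusted p = 0.406). In 5 of 16 H2B genes (31.2%), H2bc8, H2bc12, H2bc1, H2bc11 and H2bc15, every Dmrt1 KO array was lower than every control, against 8.54% of all rows. H2bc4, the brightest, gave -0.18 ± 0.29, and H2bc6, the dimmest, 0.02 ± 0.29.

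The H2B difference was not alike on all arrays. Deviations from each row's mean had an H2B median of 0.10, -0.36 and -0.38 in Dmrt1 KO replicates 1, 2 and 3, against 0.06, 0.26 and 0.28 in control replicates 1, 2 and 3. Dmrt1 KO replicate 1 thus stood level with control replicate 1, the array that shares its title number. The median difference was -0.07 within the first title number and -0.58 within the second. H2bc21, which lay higher on all Dmrt1 KO arrays, differed by 0.25 ± 0.19 (limma adjusted p = 0.745). H2bc18 had the highest fold change of the family, 1.00 ± 0.48 (adjusted p = 0.565), with control replicate 1 at 7.13 below the other 5 arrays, which ran from 8.48 to 9.82.

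The H3 genes divided evenly over all arrays. Their median was 0.00, with 6 of 12 below 0, and the genes with the smallest p pointed both ways. H3c1 had 5.20, 6.26 and 5.48 in Dmrt1 KO replicates 1, 2 and 3, against 6.41, 7.53 and 6.64 in controls. It was 2.32-fold lower (-1.22 ± 0.38, SE, limma adjusted p = 0.371) with both means under the guide, and 1.66-fold lower with log2(value + 50). H3c7 had 4.24, 4.88 and 4.62 in Dmrt1 KO arrays, against 6.27, 5.69 and 5.24 in controls. It was the dimmest H3 row and 2.22-fold lower (-1.15 ± 0.31, adjusted p = 0.303), but 1.41-fold lower with log2(value + 50). H3c3 had 7.97, 7.89 and 8.35 in Dmrt1 KO arrays, against 7.68, 7.79 and 6.93 in controls, and was 1.52-fold higher (0.60 ± 0.28, adjusted p = 0.547). H3c4, the brightest H3 row, gave 0.00 ± 0.31.

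The H3 medians varied more between replicates of a group than between the groups. Their median deviation was -0.55, 0.03 and 0.17 in Dmrt1 KO replicates 1, 2 and 3, against -0.10, 0.36 and -0.03 in the controls. Of the 12 rows 7 were lowest on Dmrt1 KO replicate 1 and 6 were highest on Dmrt1 KO replicate 3. H3c2 shows the pattern, with 8.57, 9.70 and 10.68 in Dmrt1 KO arrays against 8.86, 9.74 and 10.12 in controls. Without Dmrt1 KO replicate 3 the H3 median was -0.26, with 10 of 12 genes below 0. The median difference was -0.31 within the first title number, with 10 of 12 below 0, and -0.15 within the second, with 9 of 12 below 0, and it was -0.20 with title numbers fitted as a block, a fit in which Dmrt1 KO replicate 3 has no weight. An increase from the first title number to the second and on to that of Dmrt1 KO replicate 3, with no overlap was seen in 3 of 66 members (4.55%), among them H3c2 and H3c6, and in 3.71% of all rows.

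**Figure D3:**
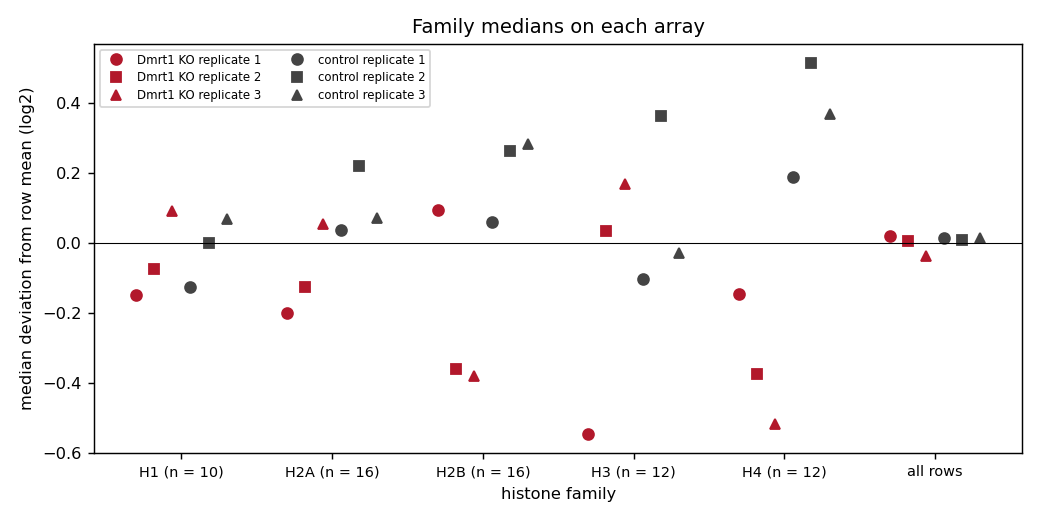
Median over the genes of each family of the deviation from the row's mean over 6 arrays (vertical axis, log2), by array. Dmrt1 KO arrays are red and controls grey, and the symbols are replicates. The H4 medians are -0.15, -0.37 and -0.52 in Dmrt1 KO arrays against 0.19, 0.52 and 0.37 in controls, while H3 medians overlap.

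Most H4 genes, which encode nearly the same protein throughout, gave lower values in Dmrt1 KO testes. Of 12 genes 10 were below 0, the median was -0.69, and 7 (58.3%) had all Dmrt1 KO arrays below all controls, where 8.54% of all rows did. Both group means lay above the background guide in 5 of the 12 and under it in 4. With log2(value + 50) the median was -0.54. At an unadjusted limma p of 0.05, 8 of 12 were lower and none higher, where 5.10% of all rows were lower, and none passed the adjusted test. H4c1 had 7.25, 7.08 and 6.44 in Dmrt1 KO replicates 1, 2 and 3, against 7.99, 8.12 and 8.30 in controls. The groups did not overlap, and the gene was 2.32-fold lower (-1.21 ± 0.26, SE, limma adjusted p = 0.209), or 1.92-fold lower with log2(value + 50).

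H4c11 had 5.89, 6.14 and 5.37 in Dmrt1 KO arrays, against 6.65, 7.24 and 6.88 in controls. It was 2.17-fold lower (-1.12 ± 0.27, SE, limma adjusted p = 0.264) with both means under the guide, and 1.61-fold lower with log2(value + 50). H4c9 had 7.36, 7.01 and 6.33 in Dmrt1 KO arrays, against 7.99, 8.13 and 7.77 in controls, and was 2.09-fold lower (-1.07 ± 0.29, adjusted p = 0.312). Its Dmrt1 KO mean lay under the guide, as did that of H4c1, and with log2(value + 50) it was 1.75-fold lower. In H4c1, H4c11 and H4c9 alike, Dmrt1 KO replicate 3 was the lowest array. H4c3, the brightest H4 row and above the guide in both groups, had 8.40, 8.45 and 7.95 in Dmrt1 KO arrays, against 8.77, 9.25 and 9.05 in controls. It was 1.69-fold lower (-0.76 ± 0.23, adjusted p = 0.364). H4c18, H4c2 and H4c6, whose groups also did not overlap, gave -0.84 ± 0.30, -0.67 ± 0.24 and -0.56 ± 0.21. The Dmrt1 KO mean of H4c2 lay under the guide. H4c12, whose groups overlapped, gave -0.71 ± 0.28.

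Not every H4 gene differed. H4c8 had 8.11, 8.06 and 8.54 in Dmrt1 KO arrays, against 8.29, 8.65 and 7.80 in controls, a difference of -0.01 ± 0.27. H4c14, the dimmest, lay under the guide in both groups and gave 0.55 ± 0.32 (limma adjusted p = 0.644), and H4f16, also under it, gave 0.28 ± 0.45. Over the H4 rows, 6 of 12 were lowest on Dmrt1 KO replicate 3, the array that stood apart, and 8 of 12 were highest on control replicate 2. Without Dmrt1 KO replicate 3 the H4 median was -0.57, 11 of 12 genes were below 0, 8 lay below the controls on both remaining arrays (13.6% of all rows), and 5 were lower at an unadjusted p of 0.05 (5.13% of all rows). The median difference was -0.27 within the first title number and -0.81 within the second.

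**Figure D4:**
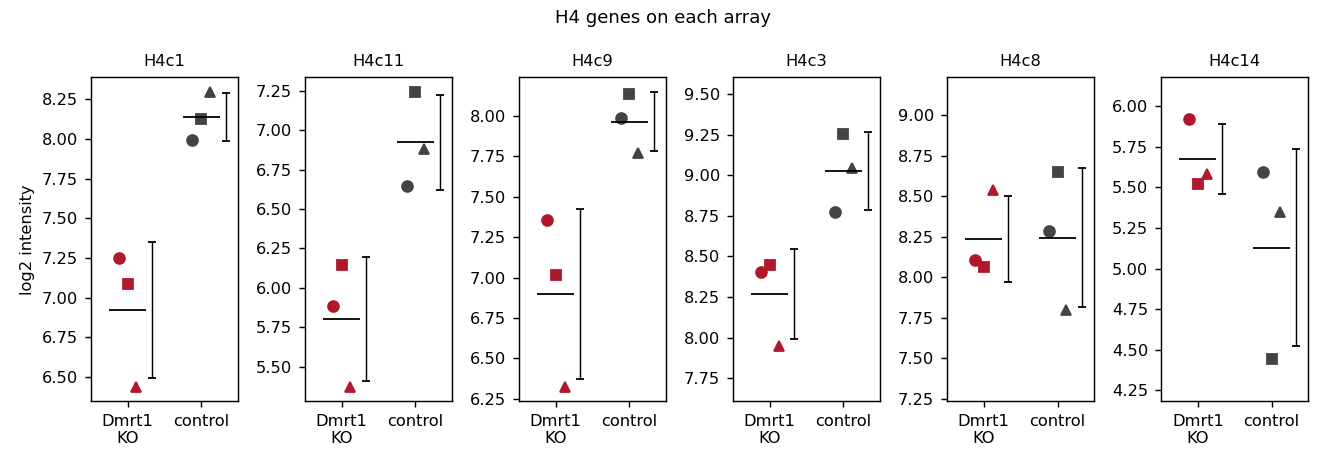
Log2 intensity (vertical axis, its range set for each gene) of 6 H4 genes on each array, Dmrt1 KO in red and control in grey. Circle, square and triangle are replicates 1, 2 and 3, the line is the mean and the bar the SD. H4c1, H4c11, H4c9 and H4c3 separate the groups, and H4c8 and H4c14 do not.

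H4 promoters carry a known cell cycle element, site II, whose inner letters GGTCCG were searched on both strands. The letters were found in 10 of 11 H4 windows (90.9%), against 8.39% of all 27025 windows, in 0 of 16 H2A windows, and in 1 window each of the H1, H2B and H3 families. Of the 66 members 61 had a window in RefSeq. The CCAAT letters ran the other way, in 3 of 11 H4 windows but in all 16 H2A, 14 H2B and 10 H3 windows, against 37.9% of all windows. The octamer letters matched 7 of 16 H2A and 6 of 14 H2B windows, against 4.59% of all windows, and AAACACA, the H1 box known from linker histone promoters, matched 5 of 10 H1 windows, against 7.14% of all. Stretches of 60 bases around the site are shown for H4 genes that were lower (H4c11, H4c9 and H4c3) and for H4 genes whose groups overlapped (H4c4 and H4c8), from RefSeq (GRCm38.p6), each on its gene's strand. GGTCCG and TATAAA are in capitals. They lie at chr13:21734989-21735048 (plus) for H4c11, chr13:22041376-22041435 (minus) for H4c9, chr13:23698472-23698531 (minus) for H4c3, chr13:23581494-23581553 (plus) for H4c4 and chr13:23531012-23531071 (plus) for H4c8.
H4c11: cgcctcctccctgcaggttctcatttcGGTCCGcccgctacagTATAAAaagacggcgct
H4c9: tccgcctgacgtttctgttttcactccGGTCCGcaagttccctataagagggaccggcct
H4c3: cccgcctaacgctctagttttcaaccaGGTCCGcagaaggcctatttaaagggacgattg
H4c4: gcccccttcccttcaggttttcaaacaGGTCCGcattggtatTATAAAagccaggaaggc
H4c8: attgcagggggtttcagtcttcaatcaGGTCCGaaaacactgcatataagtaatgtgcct
Each stretch was cut around a match to GGTCCG, so the presence of these letters in both sets was fixed and does not compare them. H4c1, which was lowest in fold change, was the H4 gene whose window held no match. H4c4 had 6.35, 5.87 and 6.81 in Dmrt1 KO arrays, against 6.48, 6.82 and 6.64 in controls, a difference of -0.30 ± 0.27 (limma adjusted p = 0.795).

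Among the linker histones above background, H1f10 separated the groups. H1f10, a variant expressed outside S phase, had 8.79, 8.52 and 8.79 in Dmrt1 KO replicates 1, 2 and 3, against 9.82, 10.25 and 9.89 in controls. All values lay above the guide, and the gap between the groups was wider than the spread within either. It was 2.43-fold lower (-1.28 ± 0.21, SE, limma adjusted p = 0.146). Its limma adjusted p was 0.0483 with trend and robust settings, where 0.109% of rows were called lower. The limma adjusted p was 0.0238 when the dimmest 50% of rows were dropped, where 17 of 12816 rows were called lower. The difference was -1.03 within the first title number, -1.55 within the second, and -1.33 without Dmrt1 KO replicate 3. H1f0, the linker variant of cells that have stopped dividing and the brightest H1 row, had 14.81, 14.53 and 14.80 in Dmrt1 KO arrays, against 14.29, 14.93 and 14.61 in controls (0.10 ± 0.23).

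The testis H1 genes H1f6 and H1f7 lay near or under the guide. H1f6, known from spermatocytes, had 7.02, 7.08 and 7.52 in Dmrt1 KO arrays, against 7.11, 6.90 and 7.50 in controls, with overlapping groups near the guide. H1f7, known from spermatids, lay under the guide on every array, at 4.96, 5.03 and 6.22 in Dmrt1 KO arrays and 4.99, 5.07 and 5.10 in controls. H1f8, the linker histone of oocytes, had 8.34, 8.67 and 10.36 in Dmrt1 KO arrays, against 8.69, 8.64 and 8.78 in controls, all above the guide. In both H1f7 and H1f8 Dmrt1 KO replicate 3 alone was high, and without it their differences were -0.06 and -0.20 in place of 0.35 ± 0.34 and 0.42 ± 0.48. H1f9 had no named row and was not analysed here.

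The replication-dependent H1 genes did not move together. H1f1 had 6.49, 7.10 and 6.54 in Dmrt1 KO arrays, against 6.99, 7.74 and 7.68 in controls, 1.69-fold lower with overlapping groups (-0.76 ± 0.28, SE, limma adjusted p = 0.458). Its Dmrt1 KO mean lay under the guide, and it was 1.47-fold lower with log2(value + 50). H1f4 had 5.96, 5.21 and 5.13 in Dmrt1 KO arrays, against 5.06, 4.98 and 4.77 in controls, all under the guide (0.50 ± 0.27, adjusted p = 0.606). H1f2, H1f3 and H1f5 lay between -0.06 and 0.10. The H1 median was 0.07, and -0.07 without Dmrt1 KO replicate 3.

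By their order in the annotation, 59 members sit in 6 runs of neighbouring histone genes with no other protein-coding gene between them, and 7 stand alone. Genes in the same run did not share one value. Within the run of 9 genes from H1f2 to H1f1, the 4 at its end, H4c2, H4c1, H3c1 and H1f1, gave -0.67, -1.21, -1.22 and -0.76, while H3c3 in the same run gave 0.60. All 5 genes of the run H2ac12, H2bc12, H4c9, H2ac11 and H2bc11 were below 0, against 52.0% of all rows. In 4 of them all Dmrt1 KO arrays lay below all controls, against 8.54% of all rows. The run of 10 genes from H2ac21 to H2bc18, 9 of them measured, had a median of -0.05 and no gene whose Dmrt1 KO arrays were all lower. With so few genes in each, these counts do not tell the runs apart.

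**Figure D5:**
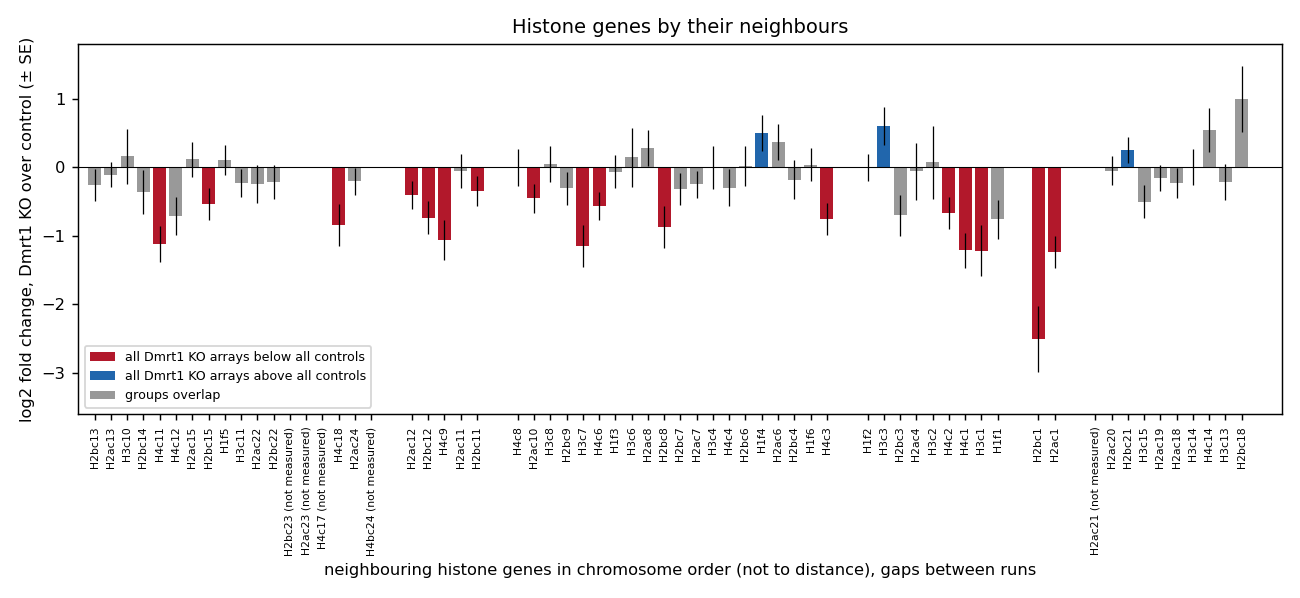
Log2 fold change (vertical axis, Dmrt1 KO over control, with limma's standard error) of the histone genes that have a histone neighbour, in their order along the chromosome and with gaps between the 6 runs. Bars are red where all Dmrt1 KO arrays lie below all controls, blue where all lie above and grey otherwise. The pair H2bc1 and H2ac1 is lowest at -2.51 and -1.24, and H3c3 is at 0.60 in a run whose other end reaches -1.22.

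Genes that act with histones were read from lists, and in each list 0 passed limma's adjusted test. Of 9 measured histone genes outside the naming rule, 1 was higher and none lower at an unadjusted p of 0.05, against 4.41% and 5.10% of all rows. Macroh2a2, a variant of H2A with an added macro domain, was 1.51-fold higher (0.60 ± 0.21, SE, limma adjusted p = 0.423). Cenpa, the H3 variant of centromeres, gave -0.47 ± 0.25. Among 18 genes of histone messenger RNA transcription and processing none passed the unadjusted p, against the same shares of all rows, and the median was -0.07. Eri1, an exonuclease of the histone stem-loop, gave -0.62 ± 0.29, and -0.31 without Dmrt1 KO replicate 3. Ncbp1, the large subunit of the cap-binding complex, gave 0.39 ± 0.20.

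Of 18 histone chaperones 1 was higher and 1 lower at the unadjusted p, near the 4.41% and 5.10% of all rows, with a median of -0.06. Chaf1b, a subunit of the assembly factor that deposits H3 and H4 on new DNA, had 13.51, 13.81 and 13.40 in Dmrt1 KO replicates 1, 2 and 3, against 12.86, 12.73 and 12.97 in controls. It lay higher on every Dmrt1 KO array, 1.65-fold (0.72 ± 0.20, SE, limma adjusted p = 0.328). Npm2, a chaperone of oocytes, was 1.45-fold lower (-0.53 ± 0.20, adjusted p = 0.460). In the list of histone replacement in spermatids (7 genes, median 0.16) Prm1, a protamine, gave -0.78 ± 0.25. Its Dmrt1 KO mean lay under the guide, and Prm1 was 1.72-fold lower, or 1.47-fold lower with log2(value + 50). Tnp2, a transition protein under the guide on every array, gave 0.35 ± 0.23.

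The S phase and proliferation list had a median of -0.04 over 19 genes, with 11 below 0, against 52.0% of all rows, and 2 lower at the unadjusted p, against 5.10%. In 4 of the 19 every Dmrt1 KO array was lower than every control, against 8.54% of all rows, and in none was every one higher. Ccne2, a cyclin of S phase entry, had 10.40, 10.95 and 9.81 in Dmrt1 KO arrays, against 11.33, 12.20 and 11.28 in controls. It was 2.33-fold lower (-1.22 ± 0.36, SE, limma adjusted p = 0.356). Rrm2, a subunit of ribonucleotide reductase, was 1.40-fold lower (-0.49 ± 0.19, adjusted p = 0.479). The list summed to intensities of 148242 to 174644 in Dmrt1 KO arrays, against 157606 to 181471 in controls, with overlapping groups, and its part in the histone results was not tested.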

How the data were processed

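Per the labels' protocols, RNA of testes was reverse transcribed, labelled with Cy3 dye and put on 6 NimbleGen expression arrays of long oligonucleotides. The deposited table holds intensity, linear in scale, 1 value for each RefSeq accession and array, and RMA is named per the submitters' processing notes, with no version. They ran from 8.81 to 65190.3, so log2 was taken before any test. Rows were named by accession without version through the RefSeq annotation of GRCm38.p6 (17780 of 25631 rows). Tests used limma version 3.58.1 under R 4.3.3 (lmFit and eBayes, no covariate, no filter) over all rows with Benjamini-Hochberg adjustment at 0.05, after checks on simulated data. Errors of fold changes are limma's standard errors. The number of arrays limits the precision: an exact permutation test of 3 against 3 cannot give a two-sided p below 0.1. The members and lists were chosen with earlier results of these data known. Genes named with values were the germline variants, H1f0 and H1f10, the 3 smallest limma p, the brightest and the dimmest row in each family, and the 2 smallest p in each other list. Other genes named were chosen after their values were seen. Arrays were grouped by the leading digits of the array numbers in their titles. The alternatives were quantile normalization, array medians subtracted, the lowest 50% of rows left out, log2(value + 50), eBayes with trend and robust settings, the array number group as a block, the mean of a gene's rows, each array left out and looser thresholds. Figures were drawn with matplotlib version 3.10.9.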

Additional observations from a re-analysis of the deposited data

How the results depend on the processing

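The median log2 fold change of the 66 histone genes, -0.22 as reported, stayed below 0 under every alternative run, and ran from -0.31 to -0.11 with each array left out in turn. The count of members called was 0 as reported and 0 with any array left out, 2 (H2bc1, adjusted p = 0.0382, and H1f10, adjusted p = 0.0483) with the trend and robust settings of eBayes, 1 (H1f10, adjusted p = 0.0238) with the lowest 50% of rows left out, which keeps 25 members and no H4 gene, and 16 at an unadjusted p of 0.05. The count of members whose groups did not overlap was 21 of 66 as reported, where 8.54% of all rows lay lower and 6.80% higher. It was 6 of 25 with that filter and 23 to 30 of 66 with an array left out, where fewer arrays make separation easier. Without Dmrt1 KO replicate 3, the share of all rows that lay lower was 13.6%. The shares for the other settings are not given here, so their counts are not read as a result about histones. Over all rows limma called 8, against 49 with a block for the title numbers, 81 with trend and robust settings, 52 with the filter, 34 at an adjusted p of 0.1, 2436 at an unadjusted p of 0.05, and 0 to 47 with an array left out. Signs turned in 7 named genes whose reported values lay between -0.18 and 0.42. With title numbers fitted as a block H1f6 was -0.11, H1f7 -0.043 and H1f8 -0.17. H3c4 was 0.029 with array medians subtracted, 0.00018 with log2(value + 50) and 0.032 with quantile normalization. With an array left out the ranges were -0.12 to 0.20 for H1f6, -0.057 to 0.57 for H1f7, -0.20 to 0.81 for H1f8, -0.061 to 0.26 for H1f0, -0.44 to 0.015 for H2bc4, -0.13 to 0.29 for H2bc6 and -0.26 to 0.29 for H3c4. The cause of these changes was not tested beyond the fewer rows or arrays in them. The labels give no replicate numbers that could pair arrays, so the title numbers served as the block, in which Dmrt1 KO replicate 3 has no weight. Each member has 1 row, so taking the mean of a gene's rows changed no member's fold change.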
